A study of Mus musculus with 7 samples.

Results

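The cells described here are the E16.5 oocytes that carry the transcripts of meiotic prophase, 776 of the 11042 cell barcodes of 1 single-cell RNA library made from E16.5 ovaries. A cell was taken when at least 3000 genes were detected in it, when Dazl and Ddx4 together had at least 8 unique molecular identifiers (UMIs, 1 for each captured transcript), when Sycp3 had at least 8, and when Kitl and Wnt6 together had no more than 2. In this library 6722 cells had 3000 or more genes, so the oocytes made up 11.54% of them (exact binomial 95% interval 10.79 to 12.33), and the other 5946 served for comparison. The series holds 52542 barcodes in 7 libraries, 1 each from E11.5 gonads, from E12.5, E14.5, E16.5 and E18.5 ovaries and from P1 and P5 ovaries. All came from untreated wild-type C57BL/6J mice, and each library pooled the gonads of several animals. No library has a replicate and cells are not replicates, so no test was made. The intervals given cover counting error only.

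In the fetal ovary, female germ cells enter meiosis in a wave, not all at the same time, and go through leptotene, zygotene and pachytene before birth. Homologous chromosomes are cut by programmed breaks, search for each other by strand exchange and are held together along their length by the synaptonemal complex, a protein ladder of lateral elements, transverse filaments and a central element. At pachytene the ladder is complete and some of the breaks mature into crossovers. The cells then arrest in diplotene and are enclosed by pregranulosa cells as primordial follicles. The stage is defined by chromosomes in the nucleus, which RNA counts do not show, so the name pachytene rests here on age and on transcripts.

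Sycp3, Dazl and Ddx4 chose the cells, and their high values are no finding. The marker genes not used in the rule were found in more of these cells than of the others. After each cell was thinned to 5000 UMIs, which left out no cell, Tex15 had a UMI in 99.6% of the oocytes and 12.9% of the other cells, 4930447C04Rik in 100% and 9.33%, and Hfm1 in 79.1% and 2.67%. Before thinning the median oocyte had 26538.5 UMIs and the median other cell 13058.5. The UMIs of the 776 oocytes summed to 21314033. The oocytes held a median of 5517.5 genes, against 4005 in the other cells.

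The limits of the rule were described with no test. Of 865 cells that met the limits on genes and on Dazl plus Ddx4, 859 had 8 or more Sycp3 UMIs, so the Sycp3 limit removed 6 cells, which had a median of 6.5 Sycp3 UMIs. The 20 oocytes with 8 to 11 Sycp3 UMIs had a median of 9. The limit on Kitl plus Wnt6 removed 83 cells, which held a median of 16 UMIs of these 2 pregranulosa genes and 35221 UMIs in all. In 555 of the oocytes the 2 genes were at 0, in 186 at 1 and in 35 at 2. The 11 cells just outside, with 3, had a median of 34122 UMIs. Stroma markers, which the rule did not use, summed to 92.4, 196.9 and 441.8 CPM in the oocytes with 0, 1 and 2, and to 1009 CPM in these 11 cells. Scrublet, which scores cells for likeness to simulated doublets, called 57 of the 83 removed cells and 25 of the 776 oocytes. Another 23 cells met every limit but that on genes. The 7 oocytes less than 200 genes above the limit had a median of 20 Sycp3 UMIs, and the 4 such cells within 200 genes below it had 31.

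The E16.5 library stood apart from the rest in several respects. It was the deepest, with 125415948 UMIs. The median mitochondrial share of cells passing the rule was 7.404%, against 2.435, 4.262, 4.745 and 4.283% in those of E14.5, E18.5, P1 and P5. The median ribosomal protein share, 23.8% at E16.5 against 33.6, 30.15, 20.57 and 22.15%, lay within the range of those ages. The barcodes of the E16.5 library differed too. Between 0 and 3 of its barcodes were found in each of the other libraries, at most 0.0632% of them, while E14.5 shared 1.5 to 1.65% of the barcodes of each of the others. Of its barcodes 11 began with AAACCC and 0 with AAACCT, while the other libraries held 0 of the former and 7 to 25 of the latter. The labels give v2 chemistry for every library, and whether the E16.5 library was made with the same chemistry was not tested. No E16.5 oocyte shared a barcode with any of the cells that passed the same rule at another age. The ages compared below therefore differ also in library, in barcode set and possibly in chemistry, and these cannot be told apart, for high or low values at E16.5 alike. The somatic cells of the same libraries, meaning other cells with at most 2 Dazl plus Ddx4 UMIs, are given beside the oocytes for this reason.

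Upstream sequences of 6 of the genes that led the oocytes are shown first, since their promoters share short motifs, and sequence was no part of the rule. Sycp3 and Ddx4 among them are genes of the rule. They are the 180 bases before the annotated start, 5′ to 3′ on the strand of the gene, from RefSeq on GRCm38.p6. Capitals mark CACGTG, the E-box, which reads the same on both strands, and GCGGGAA, an E2F-type motif searched also as TTCCCGC. The 2 motifs do not overlap in these windows. The windows are chr10:88459407-88459586 (+) for Sycp3, chr3:95559497-95559676 (+) for Hormad1, chr9:50561269-50561448 (-) for Tex12, chr13:112652311-112652490 (-) for Ddx4, chr3:102936101-102936280 (-) for Sycp1 and chr12:72917766-72917945 (-) for 4930447C04Rik, whose RefSeq start lies inside the longer GENCODE gene.
Sycp3: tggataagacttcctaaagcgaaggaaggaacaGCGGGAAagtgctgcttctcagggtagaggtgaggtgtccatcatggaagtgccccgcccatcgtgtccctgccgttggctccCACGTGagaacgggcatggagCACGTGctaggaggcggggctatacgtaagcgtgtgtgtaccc
Hormad1: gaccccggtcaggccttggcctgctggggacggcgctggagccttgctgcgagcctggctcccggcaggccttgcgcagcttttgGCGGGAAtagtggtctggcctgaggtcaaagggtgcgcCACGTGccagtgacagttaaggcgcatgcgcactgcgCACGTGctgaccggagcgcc
Tex12: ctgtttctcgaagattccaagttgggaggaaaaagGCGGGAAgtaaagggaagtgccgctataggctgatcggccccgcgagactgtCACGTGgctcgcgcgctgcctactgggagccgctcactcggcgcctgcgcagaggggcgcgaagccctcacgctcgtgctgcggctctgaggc
Ddx4: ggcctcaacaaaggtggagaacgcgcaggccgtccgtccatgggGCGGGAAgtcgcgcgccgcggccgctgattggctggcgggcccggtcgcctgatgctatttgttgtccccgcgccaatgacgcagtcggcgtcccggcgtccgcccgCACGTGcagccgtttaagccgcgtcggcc
Sycp1: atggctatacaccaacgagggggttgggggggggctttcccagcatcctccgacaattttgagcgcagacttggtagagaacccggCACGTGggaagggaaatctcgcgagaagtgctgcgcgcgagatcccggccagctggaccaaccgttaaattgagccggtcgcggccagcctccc
4930447C04Rik: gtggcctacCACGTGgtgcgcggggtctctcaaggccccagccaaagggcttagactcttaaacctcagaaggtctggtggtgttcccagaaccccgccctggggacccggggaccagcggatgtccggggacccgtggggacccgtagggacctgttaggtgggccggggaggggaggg

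In Sycp3 the E2F-type motif began at -147 and the E-boxes at -64 and -43 from the start, and in Hormad1 they began at -95, -57 and -20. Over windows from 250 bases before to 50 after the start, the E-box was in 11 of the 23 promoters found for the 25 leading genes (47.83%), in 933 of the 8717 promoters found for all genes compared with the other cells (10.7%) and in 1957 of all 27025 promoters of the table (7.241%). The E2F-type motif was in 9 of the 23 (39.13%), against 9.372% of promoters of compared genes and 4.662% of all. Both were in 6 of the 23, namely those of Sycp3, Hormad1, Tex12, Ddx4, Stag3 and Fmr1, and in 0.4625% of all promoters. Without the 3 rule genes among the 25, the E-box was in 9 of 20 promoters (45%), the E2F-type motif in 7 (35%) and both in 4 (20%). Among all genes higher in the oocytes the shares were lower, 12.49% for the E-box and 13.12% for the E2F-type motif. The lists were uneven. The E-box was in 4 of 9 promoters of synaptonemal complex genes (3 of 8 without Sycp3) and 7 of 16 of germ granule genes (6 of 14 without the rule genes), but in 2 of 9 for crossover, 1 of 8 for break formation, 1 of 8 for HORMA and telomere genes, 1 of 12 for strand exchange and 1 of 6 for oocyte transcription factors. The E2F-type motif was in 7 of 12 for strand exchange, 2 of 9 for the synaptonemal complex, 2 of 9 for crossover, 2 of 8 for HORMA and telomere genes, 2 of 16 for the germ granule, 1 of 8 for break formation and 1 of 6 for oocyte transcription factors. A match is a description of letters and not of a bound site.

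A level below is the UMIs of a gene summed over a class of cells, scaled to 1000000 UMIs of that class (CPM). A gene was compared when its mean level in the 2 classes was at least 5 CPM, and it was counted as higher or lower when the levels differed at least 2-fold with 5 CPM added to each. Against the other E16.5 cells 11140 genes were compared, of which 2190 (19.7%) were higher in the oocytes and 3022 (27.1%) lower, with a median log2 ratio of -0.03. The rule chose the cells on this contrast, so these shares are background for the lists below and nothing more.

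The 25 leading genes, ranked with 50 CPM added, were mostly genes of meiosis or of the germ line. Positions are those of GENCODE vM21 on GRCm38. First came Smc1b (ENSMUSG00000022432), the meiotic subunit of the cohesin ring, on chr15:85064689-85131964, at 4082 CPM in the oocytes and 122.8 in the other cells. Sycp1 (ENSMUSG00000027855), which forms the transverse filaments, on chr3:102818499-102936100, was at 2761 and 79.5 CPM. The central element gene 4930447C04Rik (Six6os1, ENSMUSG00000021098), on chr12:72881109-72940774, was at 2551 and 83.6 CPM. Near its start it overlaps Six6, which lies on the other strand. Tex15 (ENSMUSG00000009628), needed for strand exchange in the germ line, on chr8:33516738-33585582, was at 2180.4 and 91.1 CPM. Stk31, Zcwpw1, Syce3, Taf7l, Sycp2, Hormad1, Map7d2, Meioc, Tex101, Mov10l1, Stag3, Tex12, Rnf17 and Ankrd31 followed with lower levels, along with the rule genes.

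For most of these genes the ratio of oocytes to other cells was nearly the same. In 19 of the 25 it lay between 25 and 38, with a median of 30.51. The 5946 other cells include 100 with more than 2 Dazl plus Ddx4 UMIs, among them the 83 removed for Kitl and Wnt6. Against the 5846 without them the median ratio was 196.7. Sycp1 was then at 10.3 CPM, a ratio of 269, and Smc1b at 14.1 CPM, a ratio of 289. Fmr1, Ndufa1, Hells and Atr, which somatic cells also use, had ratios of 12.2, 14.7, 15.9 and 16.2 to these cells.

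**Figure D1:**
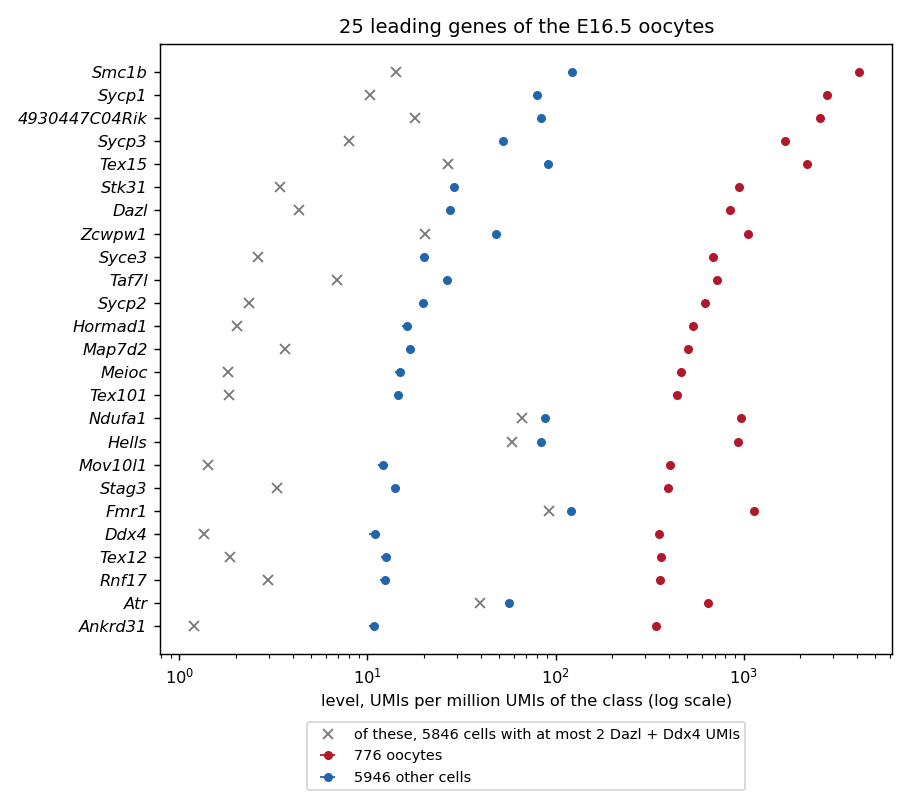
Levels of the 25 leading genes on a log axis, in CPM, in the 776 oocytes (red), the 5946 other E16.5 cells (blue, both with exact Poisson 95% intervals, mostly narrower than the points) and the 5846 of these with at most 2 Dazl plus Ddx4 UMIs (grey crosses). The distance from red to blue is close to constant for most germline genes. It is shorter for Fmr1, Ndufa1, Hells and Atr, and less so for Tex15 and Zcwpw1, all below the median ratio of 30.51.

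Genes were then described by their part in meiosis, in lists drawn up from general knowledge. Of the 80 genes on 7 meiotic lists 76 were compared, of which 59 were higher in the oocytes and 4 lower. Sycp3, counted among the 59, was a gene of the rule. All 8 compared genes of the synaptonemal complex were higher. Summed, the list stood at 9324 CPM in the oocytes and 317.7 in the other cells. Without Sycp3, which chose the cells, 7 of 7 were higher and the sums were 7672 and 265 CPM. The lateral element gene Sycp2 was at 621.9 CPM (interval 611.3 to 632.6), against 19.8. The central element genes Syce1, Syce2, Syce3 and Tex12 were at 240.7, 442.9, 690.6 and 364.3 CPM, against 7.71, 41.8, 20.0 and 12.6. Sycp2l, a paralogue of Sycp2, had 1 UMI in all oocytes.

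Over single oocytes thinned to 10000 UMIs, the 772 cells that reached this depth held from 3 to 65 UMIs of Sycp1, with a median of 27, and from 7 to 95 of Smc1b, with a median of 39. No cell was without either. Hfm1 ranged from 0 to 13, with a median of 3 and with 51 cells at 0, and Spo11 from 0 to 6, with a median of 1 and with 236 cells at 0.

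The genes that bind or fasten chromosomes divided. Hormad1, which marks unsynapsed axes, was at 540 CPM against 16.2, and Terb1, which ties telomeres to the nuclear envelope, at 266.7 against 7.96. Of the 10 genes for HORMA proteins and telomere attachment 7 were higher, and Trip13, Sun1 and Cdk2, which dividing cells use too, did not reach the 2-fold difference. Of the 10 genes on the cohesin list 4 were higher. They were the meiotic subunits Smc1b, Stag3 and Rad21l, at 4082, 397.9 and 69.3 CPM, and Meikin, which is no cohesin subunit, at 12.7 CPM. Rad21 and Stag2, which serve in dividing cells, were lower, at 35.05 and 41.3 CPM against 113.4 and 112.8. Rec8, the meiotic kleisin, was lower too, with 3.003 CPM (64 UMIs) in the oocytes and 46.3 in the other cells. Somatic cells carried this Rec8 signal at 46.8 CPM.

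The genes that make and repair breaks were higher almost throughout. All 8 compared genes of break formation were higher. They included Spo11, the enzyme that cuts the DNA, at 123.9 CPM against 3.38, Prdm9, the histone methyltransferase that places the cuts, at 235.1 against 8.89, Zcwpw1, a reader of the marks it leaves, at 1048 against 48.1, and Ankrd31 at 341.3 against 10.9. Of 16 strand exchange genes 13 were higher. The meiotic recombinase Dmc1 was at 135.2 CPM against 6.41, Meiob at 145.5 against 4.84 and Brca2, which loads the recombinases, at 614.8 against 55.1. The single-strand binding genes Rpa1, Rpa2 and Rpa3, which all dividing cells need, did not reach the 2-fold difference, at 14.3, 40.4 and 24.6 CPM against 19.9, 31.2 and 19.7.

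Of 12 crossover genes 11 were higher. The helicase gene Hfm1 was at 341.2 CPM against 12.6, the X-linked Tex11 at 180.5 against 5.54, Msh4 and Msh5, whose products clamp crossover intermediates, at 47.6 and 84.9 against 1.64 and 5.22, and Rnf212, which selects sites for crossing over, at 77.3 against 2.28. Mus81, of the alternative crossover route, was at 7.65 CPM against 17.1, which misses the 2-fold difference with 5 CPM added.

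Most checkpoint genes were above the other cells. Of 12 compared genes 8 were higher, with Atr at 642.1 CPM against 56.4, Topbp1 at 539.1 against 85.2, Atm at 197.1 against 41.2 and Mdc1 at 192.6 against 32.8. The damage effector Trp53 was lower, at 9.99 CPM against 76.0, and the kinase gene Chek2 was at 10.4 against 9.76. Trp63, which guards arrested oocytes, had 16 UMIs in all, or 0.751 CPM. None of the compared apoptosis genes was higher. Bak1, Bcl2 and Bcl2l11 were lower, at 0.563, 4.93 and 7.37 CPM against 16.1, 61.6 and 35.6. Bax, a killer of the mitochondrial route, was at 78.3 CPM in the oocytes and 81.4 in the other cells.

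**Figure D2:**
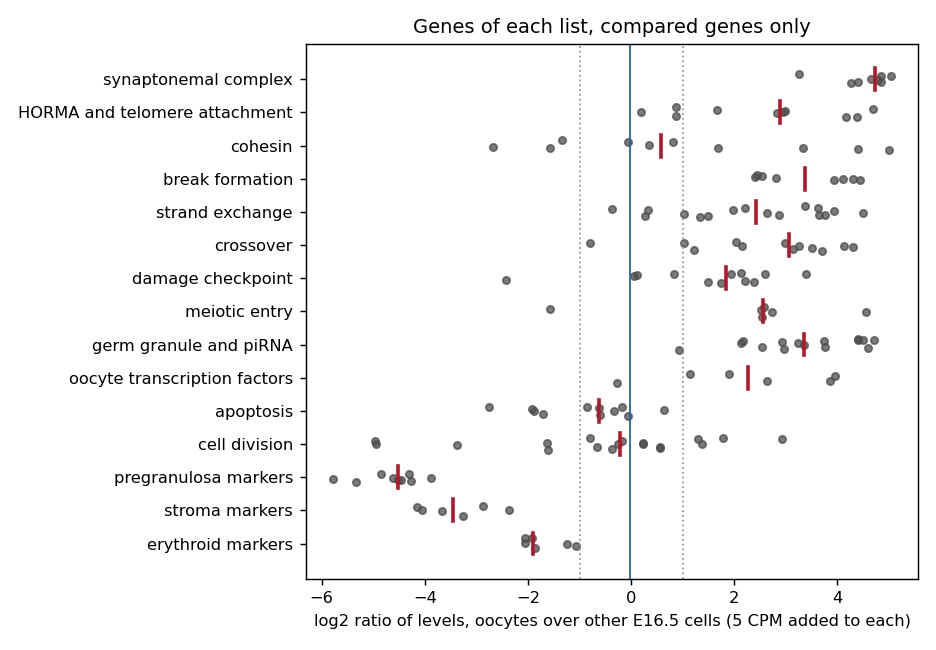
Log2 ratio of levels, oocytes over other E16.5 cells with 5 CPM added to each, for every compared gene of 15 lists (points, spread vertically for sight), with the median of each list as a red bar, the median of all 11140 compared genes (-0.03) as a blue line and 2-fold differences as dotted lines. All compared synaptonemal complex and break formation genes lie right of the dotted lines, and the pregranulosa, stroma and erythroid markers lie left of them. Genes of the cohesin list lie on both sides (4 of 10 higher and 3 lower).

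The germ granule holds the machinery of piRNAs, small RNAs that silence transposons. Of 15 compared genes of this list 14 were higher, or 12 of 13 without Dazl and Ddx4, which chose the cells. They included Mael at 304.2 CPM against 9.59, Mov10l1 at 407.8 against 12.1 and Piwil2, a piRNA-binding protein, at 74.9 against 2.78. Piwil4 was at 1.03 CPM. Of 5 compared genes that restrain transposons by other means 4 were higher, with Tex19.1 at 46.7 CPM against 1.79. Among 6 compared oocyte transcription factors 5 were higher, with Figla, which turns on zona genes, at 140.8 CPM against 4.37 and Taf4b at 203.7 against 9.33. Of 6 compared oocyte RNA regulators 5 were higher, with Cpeb1, which controls poly(A) tails, at 159.8 CPM against 5.33. The zona genes Zp1, Zp2 and Zp3 had 1, 1 and 0 UMIs in the 776 oocytes. A count of 0 allows up to 3 by a 1-sided 95% limit, which is not the kind used for the intervals elsewhere.

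Few genes of the early germ line reached a level at which they could be compared. Of 20 genes on this list 7 were compared, with 3 higher (Dppa4, Dppa5a and Zfp42, at 10.5, 32.7 and 25.5 CPM) and 2 lower (Ifitm1 and Ifitm3). Nanog had 1 UMI and Tdgf1 none. Of 8 genes for entry into meiosis, 6 were compared and 5 were higher, among them Meioc at 461.8 CPM and Ythdc2 at 170.6, which together hold the cell in meiosis. Stra8, the factor that starts meiosis, on chr6:34920163-34939344, was at 41.2 CPM against 1.96. No UMI of it was captured in 545 of the 776 oocytes, and 72 of them, with 3 UMIs or more, held 682 of its 878 UMIs.

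Of 18 cell division genes 4 were higher and 5 lower, shares near those over all compared genes (19.7 and 27.1%). Top2a, which untangles DNA, was at 630.9 CPM against 239.6 and Ccne2 at 141 against 14.1. Ccnd2 and the inhibitors Cdkn1b and Cdkn1c were lower, at 14.1, 9.67 and 102.7 CPM against 596.6, 448.2 and 1118. In the list of DNA methylation genes Uhrf1 was higher, at 67.9 CPM against 31.0, and Dnmt3a and Tet1 lower, at 44.9 and 5.35 against 162.8 and 45.5. The 10 genes of highest level in the oocytes were 4 of the mitochondrial genome, led by mt-Co1, and 6 for ribosomal proteins, led by Rps20 at 7762 CPM against 3586. Ribosomal protein genes took a median of 23.8% of the UMIs of an oocyte and 18.31% of those of another cell, and mitochondrial genes 7.404 and 9.282%.

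Markers of other cell types were low but present. Summed over 9 pregranulosa markers, of which the rule used 2, the oocytes held 44.3 CPM, or 1.75% of the level in the other cells, with Wnt4 the most abundant at 9.99 CPM. Without Kitl and Wnt6, whose low counts the rule set, the other 7 summed to 32.3 CPM against 1568. The 6 surface epithelium markers summed to 7.55 CPM against 396.5, and Msln was at 0. The 6 stroma markers summed to 137.4 CPM against 2187, led by Col3a1 at 56.5, the 5 endothelial markers to 16.3 against 207.5, the 6 immune markers to 10.5 against 89.2 and the 3 mural markers to 5.58 against 115.6. The 8 erythroid markers stood at 1334.5 CPM against 5180, led by Hbb-bs at 749.8. In the thinned cells Hbb-bs had a median of 2 UMIs, a mean of 8.03 and a highest value of 1413, so the level rests unevenly on the cells. The part of free RNA or of attached cells in these levels was not tested. The 10 lowest genes by ratio included Tmsb4x, an actin-binding peptide, at 85.2 CPM against 2834, and Vim, an intermediate filament of somatic cells, at 21.2 against 853.

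X-linked genes were more often higher in the oocytes than genes of any autosome, and their share of lower genes was within the range of the autosomes. Of 436 compared X-linked genes 135 (30.96%) were higher in the oocytes and 134 (30.73%) lower, while on single autosomes 15.13 to 23.01% were higher and 22.83 to 31.22% lower. In female somatic cells 1 X chromosome is silenced by Xist, and female germ cells are known to reactivate it before meiosis. Xist, on chrX:103460366-103483254, was at 79.3 CPM in the oocytes and 2114 in the other cells, and after thinning it had a UMI in 20.2% of the oocytes and 99.2% of the other cells. The share of X-linked among X-linked and autosomal UMIs was 3.789% in the oocytes (exact interval 3.781 to 3.798) and 3.716% in the other cells. Without Xist the shares were 3.781 and 3.491%. In cells of the same rule the share was 4.368% (E14.5), 3.862% (E18.5), 3.312% (P1) and 3.064% (P5). In the somatic cells of those 4 libraries it was 3.978, 3.930, 3.820 and 4.303%, beside 3.714% in those of E16.5. These shares depend on a few abundant genes. Without the 10 X-linked genes of highest level the share was 2.338% in the E16.5 oocytes and 2.038% in the somatic cells of that library. In the other 4 classes it was 2.15, 2.146, 2.201 and 1.8% from E14.5 to P5, so that P1 was no longer below E14.5 and E18.5, although still below E16.5. In their somatic cells it was 1.692, 1.651, 1.598 and 1.862%, so that at E18.5 and P1 the oocytes were then above the somatic cells and not below. Among the leading genes 4 of 25 were X-linked, namely Taf7l, Map7d2, Ndufa1 and Fmr1.

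**Figure D3:**
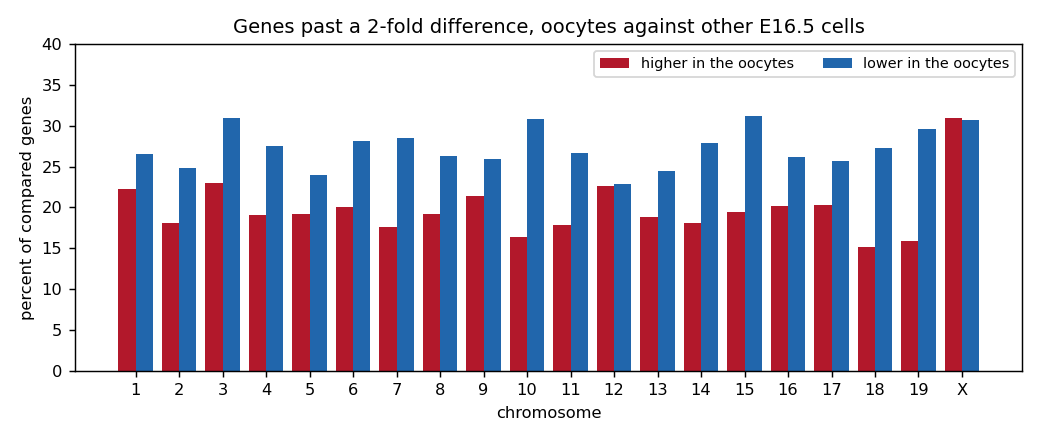
Percent of compared genes on each chromosome that were at least 2-fold higher (red) or lower (blue) in the oocytes than in the other E16.5 cells. The X chromosome has the tallest red bar, 30.96%, with no autosome above 23.01%, while its blue bar is within the range of the autosomes.

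The same rule was applied to the other libraries to place the E16.5 oocytes in time. The E11.5 library held 0 such cells, E12.5 held 1, E14.5 held 459, E18.5 held 234, P1 held 169 and P5 held 48. The 4 larger classes had medians, in that order, of 13991, 15352.5, 29764 and 66778.5 UMIs, so the fixed limits admit cells of different Sycp3 level at different ages. At E14.5 only 488 of 1727 germ cells with 3000 or more genes reached 8 Sycp3 UMIs. The E14.5 class is therefore a selection of germ cells at that age.

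Against E14.5, 2442 of 9489 compared genes were higher at E16.5 (25.7%) and 912 lower (9.61%), and the median log2 ratio was 0.39. The mitochondrial and ribosomal protein shares given above differed between these cells too. With haemoglobin and mitochondrial genes left out of totals, 2681 genes were higher at E16.5 and 852 lower. The part of the ribosomal protein share in the ratios was not tested. In the somatic cells of the same libraries 11.4% were higher and 2.71% lower, with a median of 0.22. For the 7881 genes that somatic cells carried at no less than 0.25 of the oocyte level at both ages, the oocyte ratio was divided by the somatic ratio, an alternative chosen after the data had been seen. This gave 563 higher (7.14%) and 594 lower (7.54%). Of the 80 genes on the meiotic lists 77 were compared with E14.5, of which 37 were higher at E16.5 and 5 lower. Somatic cells carried 19 of the 80 at a level that allowed the division, and relative to them 1 was higher (Mlh3) and 1 lower (Rec8). The other 61, all synaptonemal complex and break formation genes among them, could not be set against somatic cells.

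Against E18.5, 1123 of 9748 compared genes were higher at E16.5 (11.52%) and 823 lower (8.44%), with 12% and 4.78% in the somatic cells. Relative to the somatic cells 327 of 7854 were higher (4.16%) and 652 lower (8.3%). Of 77 compared genes on the meiotic lists 32 were higher at E16.5 and 4 lower, and of the 19 set against somatic cells 1, Rad51ap1, was higher and none lower. Several of the largest ratios were shared with somatic cells. Gm42418, a locus to which ribosomal RNA reads are often assigned, was at 225.7, 3330 and 276.7 CPM in the oocytes from E14.5 to E18.5 and at 402.4, 9759 and 409.1 CPM in the somatic cells. Rpl27 and AY036118 also differed in both, in the same direction, and such genes are not read as changes in oocytes.

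Against P1, 2093 of 9682 compared genes were higher at E16.5 (21.6%) and 1537 lower (15.9%), with 12% and 4.14% in the somatic cells and, relative to them, 8.1% higher and 15.3% lower. Against P5, 2548 of 10059 were higher (25.3%) and 2100 lower (20.9%), with 7.19% and 3.69% in the somatic cells and, relative to them, 13.7% and 17.2%. The 4 age comparisons share the E16.5 oocytes and are not independent of each other.

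Many genes of prophase had their highest level at E16.5. Of 11628 genes with at least 5 CPM at any of the 5 ages, 3952 (34%) had their highest level at E16.5, and 634 (5.45%) were there at least 2-fold above every other age. Among the 80 genes of the meiotic lists the numbers were 48 and 26, or 60 and 32.5%. For crossover genes they were 8 and 5 of 12, for break formation 6 and 4 of 9, for strand exchange 8 and 5 of 16 and for checkpoint genes 9 and 5 of 14. For the cohesin list they were 6 and 3 of 10 and for synaptonemal complex genes 4 and 2 of 9. For HORMA and telomere genes they were 7 and 2 of 10. None of 13 early germ line genes and 1 of 7 oocyte transcription factors had its highest level at E16.5. Markers of other cell types differed between these ages too. The stroma markers summed to 36.45, 137.4, 77.15, 96.96 and 69.15 CPM from E14.5 to P5, highest at E16.5. The pregranulosa markers, of which the rule used 2, summed to 116.1, 44.29, 84.92, 34.36 and 28.71 CPM. The part of such cells in the levels by age was not tested.

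Over the 5 ages from E14.5 to P5, Tex15 was at 236.3, 2180.4, 798.3, 535.4 and 318.9 CPM. Its level at E16.5 was 9.23 times that at E14.5 (interval 8.79 to 9.70) and 2.73 times that at E18.5 (2.63 to 2.83), and the intervals of no 2 of these ages overlapped. Hfm1 went from 55.8 CPM at E14.5 to 341.2, then to 74.2, 21.05 and 5.56. Prdm9 went from 52.9 to 235.1 CPM and then to 27.1, 15.1 and 22.8. Stag3 was at 158.2, 397.9, 59.7, 41.6 and 11.7 CPM over the same ages, and 4930447C04Rik at 440.5, 2551, 969.7, 230.6 and 34.6. These genes share a single high value at E16.5.

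The structural genes of the ladder did not all follow. Sycp1 was at 654, 2761, 1912, 1450.1 and 443 CPM from E14.5 to P5, so E18.5 held 0.692 of the E16.5 level. Sycp3, a rule gene, was at 947.1, 1652, 1669, 2058 and 1174 CPM. Syce1 varied little, between 170.4 and 240.7 CPM. Syce3 was at 181.1, 690.6, 1043, 422.0 and 46.6 CPM, with its highest level at E18.5, and Tex12 had its highest, 773.9 CPM, at E14.5.

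Genes of entry into meiosis differed in both directions from E14.5. Of 7 compared, 3 were higher at E16.5 (Meioc, Ythdc2 and Gm4969, at 461.8, 170.6 and 35.2 CPM against 143.9, 47.7 and 11.3) and 3 lower (Stra8, Msx1 and Msx2), with a median log2 ratio of -0.06. Over all genes compared with E14.5, 25.7% were higher at E16.5 and 9.61% lower. Stra8 was at 2058 CPM in E14.5 cells and 41.2 in E16.5 cells, a 49.97-fold difference (interval 46.7 to 53.6). In E18.5 cells it was at 1.07 CPM (4 UMIs). The cohesin gene Rec8 was at 189.3 CPM at E14.5 and at 3.003, 4.02, 0.180 and 0.617 at the later ages. It was at 48.1, 46.8 and 27.5 CPM in somatic cells from E14.5 to E18.5. Of 12 compared genes of the early germ line 10 were lower at E16.5 than at E14.5, and none was higher. Dppa5a was at 670.8 and 32.7 CPM and Pou5f1, a factor of pluripotency, at 104.5 and 6.80.

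Other genes were at their lowest at E16.5. Dppa3, a maternal factor that protects methylation in the zygote, was at 377.5, 5.72, 285, 2685 and 4511 CPM over the 5 ages. Mif, a cytokine, was at 1055.5, 101.5, 192.3, 412.9 and 980.5 CPM, while in somatic cells it was at 843, 541.7 and 755 from E14.5 to E18.5. Gpx4, which protects lipids from oxidation, was at 478.3, 39.0, 80.1, 174.9 and 495.5 CPM, and in somatic cells at 557.1, 365.4 and 537.3. All 3 were lower at E16.5 than at any other of the 5 ages, but Mif and Gpx4 missed the 2-fold difference against E18.5.

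The factors of oocyte differentiation came later. Figla was at 94.8, 140.8, 850.5, 1713 and 1115 CPM from E14.5 to P5. Nobox went from 0 UMIs at E14.5 to 6.76, 101.5, 178.3 and 317 CPM, Sohlh1 from 2.001 to 13.3, 301.6, 691.7 and 675.1, and Lhx8 from 3.15 to 15.1, 199.3, 305.5 and 236.5. Of 7 compared oocyte transcription factors 5 were lower at E16.5 than at E18.5 and 1, Taf4b, was higher. Among all genes compared with E18.5, 8.44% were lower at E16.5 and 11.52% higher. Id1, an inhibitor of basic helix-loop-helix factors, was at 353.8 CPM at E16.5 and 1633 at E18.5. Zp2, Zp3, Padi6 and Gdf9, genes of the growing oocyte, were each below 6 CPM until E18.5 and at 99.3, 106.3, 94.8 and 44.1 CPM at P1.

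A histone gene and a cyclin gene were low at E14.5 and again after birth. Hist1h2aa, an H2A variant of the germ line, was at 1.29 CPM in E14.5 cells (9 UMIs), and then at 239.4, 7.50, 1.08 and 0.617. Ccnb3, a meiotic cyclin, was at 8.43, 298.3, 164.5, 27.3 and 1.23 CPM from E14.5 to P5. Mki67, used in dividing cells, was at 31.2, 315.9, 28.9, 37.2 and 35.2 CPM, and in the somatic cells at 31.4, 209.9 and 60.9 CPM from E14.5 to E18.5. Its level relative to somatic cells passed the 2-fold difference against E18.5 but not against E14.5.

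**Figure D4:**
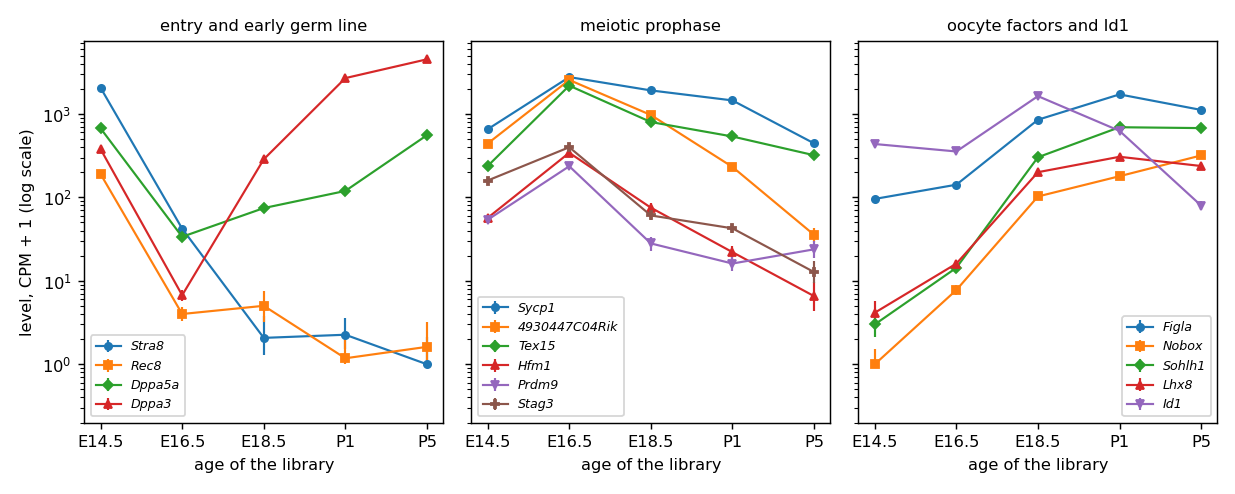
Levels (CPM with 1 added, log axis) of named genes in cells of the same rule at 5 ages, with exact Poisson 95% intervals and 1 library per age, so lines join libraries and not animals. The middle panel peaks at E16.5 for all 6 genes (Tex15 at 2180.4 CPM), Stra8 and Rec8 at left are highest at E14.5, Dppa3 has its lowest value, 5.72 CPM, at E16.5, and Nobox, Sohlh1 and Lhx8 at right lie below 16 CPM at E16.5.

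The oocytes differed among themselves. Among 772 of them thinned to 10000 UMIs, 4 shallower ones being left out, 7983 genes had a mean of at least 0.1 UMI, and the median ratio of variance to mean (Fano factor) was 1.096, where counting alone gives 1. It was above 2 for 242 genes. The highest values were those of Hbb-bs, Hbb-bt, Hba-a1 and Hba-a2, the haemoglobin genes, at 608.6, 198, 192.6 and 127.1. Next came Hmox1 at 42.3 and the nuclear RNA Malat1 at 41.9. Hmox1 had no UMI in 750 of the 772 cells and a highest value of 59, while Malat1 had a UMI in every cell. Among meiotic genes Tex15 had 7.11, Smc1b 5.92, 4930447C04Rik 4.70, Stra8 4.55 and Zcwpw1 4.26, while Sycp3, on which the cells were chosen, had 4.69. Their means were 21.29, 40.52, 25.82, 0.367, 10.28 and, for Sycp3, 16.44 UMIs. The Fano factor can rise with the mean, and the part of level in these values was not tested.

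The main axis of this variation was described by principal component 1 over the 500 genes of highest Fano factor, which held 17.8% of their variance, against 5.29% for component 2. It was oriented with Stra8 at its low end. Over the 772 cells its correlation was -0.10 with the logarithm of UMIs and 0.16 with the mitochondrial share, values that share the same libraries and UMIs. The cells were put in 4 bins of 193 along it, with medians of 27755, 26394, 26586 and 24610 UMIs. The bins were made from the same counts, so what follows is a description of the axis and no test.

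The 15 genes of largest weight at the low end were a mixed set. They included the meiotic genes M1ap, Prdm9, Zcwpw1, Syce2, Spdya and Rad51ap2 beside Top2a, Esco2, Mphosph8, Nmt2, H2-K1, Pigp, Spata5, Ankhd1 and Luzp1. In UMIs per 10000, Stra8 had means of 1.15, 0.228, 0.0777 and 0.0155 in the 4 bins and was found in 84 cells of the first and 3 of the last. Prdm9 had 4.90, 2.25, 1.25 and 0.642. M1ap, a factor of meiotic recombination, had 4.67, 1.32, 0.456 and 0.259, Dmc1 had 2.46, 1.46, 0.772 and 0.456, and Rad21l had 1.68, 0.394, 0.238 and 0.285. Esco2, which makes cohesin hold, and Top2a had 8.03 and 11.4 in the first bin and 1.91 and 2.44 in the last. Genes of entry into meiosis differed among themselves along the axis. Gm4969 (Meiosin) had 0.674, 0.378, 0.161 and 0.124 and Meioc 6.08, 5.04, 4.03 and 2.75, while Ythdc2 had 1.65, 1.82, 1.72 and 1.46 and Rbm46 1.69, 1.62, 1.39 and 1.23.

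List sums along the axis were carried in part by single abundant genes, some of which also weigh on the axis itself. The summed break formation genes had means of 31.4, 20.4, 13.6 and 9.56 UMIs per 10000, the strand exchange genes 57.5, 37.4, 29.0 and 26.2, and the crossover genes 13.2, 11.3, 9.83 and 8.51. Of these sums Zcwpw1 alone made up 17.9, 11.7, 7.16 and 4.33 for break formation and Tex15 33.5, 20.8, 15.6 and 15.3 for strand exchange. Within these lists some members stayed nearly level. Spo11 had 1.14, 1.44, 1.46 and 1.26 and Msh4 had 0.451, 0.492, 0.482 and 0.477, while others were higher at the far end. Mnd1 had 0.166, 0.223, 0.352 and 0.518, Psmc3ip 0.601, 0.782, 0.958 and 0.958, Mlh3 0.560, 0.736, 0.969 and 0.850, Rnf212 0.627, 0.751, 0.870 and 0.881, and Mus81 0.0155, 0.0622, 0.0933 and 0.124. Msh5, the partner of Msh4, had 1.88, 0.860, 0.539 and 0.358. In the synaptonemal complex Syce3 had 6.33, 7.52, 7.13 and 6.53 and Sycp1 28.1, 30.3, 28.6 and 23.9, while Syce2 had 8.91, 4.43, 2.60 and 1.76.

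At the high end lay Id1, with 0.306, 1.70, 3.64 and 8.87 UMIs per 10000, Malat1, with 18.8, 31.4, 62.4 and 87.1, and Gm27164, with 0.0259, 0.264, 0.995 and 2.99. Eif4g3 and Eif4a2, genes of translation initiation, had 2.56 and 5.97 in the last bin and 0.316 and 2.22 in the first. Tdrd9, a helicase of the piRNA pathway, had 0.0829, 0.176, 0.508 and 1.11, and Bax had 0.332, 0.539, 0.938 and 1.41. Of the 15 genes of largest weight at the high end 5 were lower at E16.5 than at E18.5 (Id1, Id3, Gm27164, Actg1 and Ftl1) and 10 neither. Of the 15 at the low end 12 were higher at E16.5 and 3 neither. Over all genes compared with E18.5, 11.52% were higher at E16.5 and 8.44% lower. The genes of the axis were chosen on their E16.5 counts, so these numbers only describe them. E16.5 somatic cells carried the low-end genes Top2a, Mphosph8 and Nmt2 at 228.9, 207.5 and 91.8 CPM, but M1ap at 1.97. Id1 and Gm27164 were at 353.8 and 101.3 CPM at E16.5 and 1633 and 464.5 in E18.5 cells, and in the somatic cells at 308.7 and 0.401 and at 148.3 and 3.76. Actg1, Id3 and Ftl1 are also used by somatic cells, where Actg1 was at 1795 and 2553 CPM, Id3 at 590.9 and 334.6 and Ftl1 at 1408 and 2747. Figla was high at both ends, with 1.88, 0.860, 0.839 and 2.09, and Nobox was found in 26 cells of the last bin and 3 of the first.

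Markers of other cells were set beside the bins. The pregranulosa markers, Kitl and Wnt6 among them, summed to 0.383, 0.446, 0.487 and 0.404 UMIs per 10000. The rule limited these 2 genes, so no trend or lack of one is read from this sum. Of the markers outside the rule, Wnt4 had 0.0622, 0.0829, 0.0985 and 0.0674. Gng13 had 0.114, 0.0674, 0.0777 and 0.0777, and Fst 0.0311, 0.0570, 0.0570 and 0.0570. The stroma markers summed to 0.684, 0.891, 1.33 and 1.60, the endothelial markers to 0.0674, 0.119, 0.181 and 0.269, and the immune markers to 0.0155, 0.0104, 0.0259 and 0.254, with a UMI in 3 cells of the first bin and 4 of the last. The mural markers summed to 0.0155, 0.0570, 0.0415 and 0.0829, the surface epithelium markers to 0.0725, 0.0570, 0.0933 and 0.0622, and the erythroid markers to 14.6, 4.89, 11.9 and 25.95, with SDs over cells of 127.4 in the first bin and 207.3 in the last. The part of these cells in the axis was not tested.

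**Figure D5:**
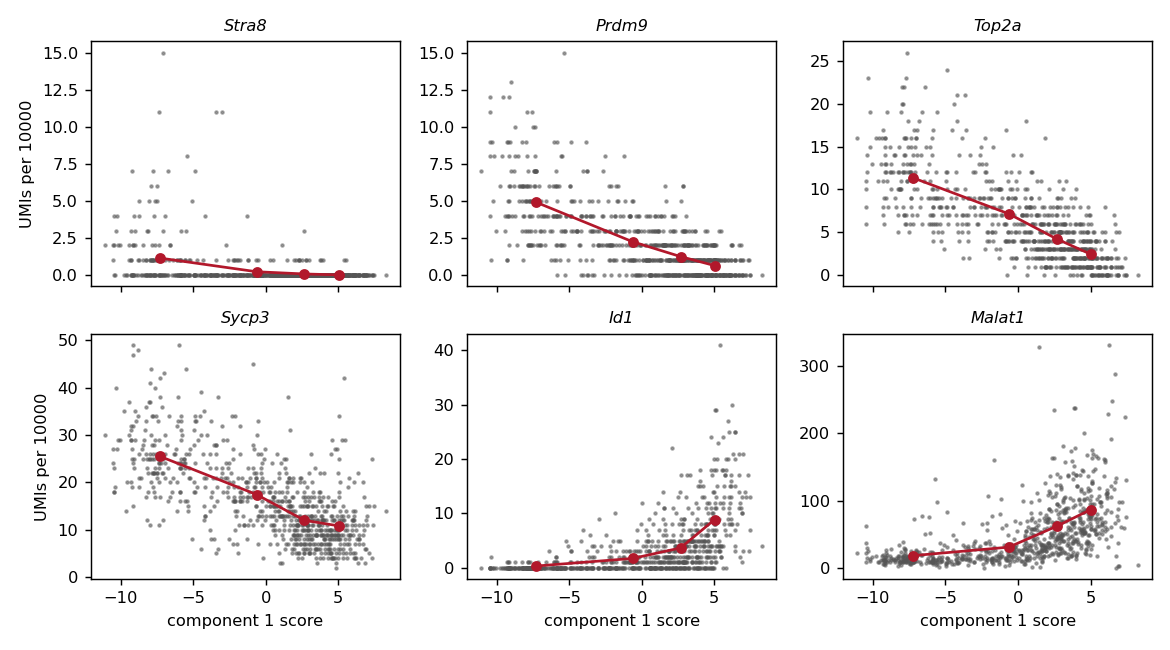
UMIs per 10000 of 6 genes in each of 772 oocytes (points) against the score on component 1, with the mean of each bin at its median score (red). Stra8, Prdm9, Top2a and Sycp3 are lower at the right than at the left and Id1 and Malat1 higher, with bin means of Malat1 from 18.8 to 87.1, and cells form a continuous spread with no gap.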

How the data were processed

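The authors dissociated pooled ovaries, made 1 10x Genomics library per age (per the labels v2 chemistry, which captures the 3′ ends of transcripts) and ran Cell Ranger 3.1.0 on mm10 with its default settings. The authors deposited 1 matrix of raw counts (UMIs) for each library, after Cell Ranger's cell calling and with no scaling. The strand setting of the counting is not named in the sources used here beyond these defaults, which bears on genes with an antisense overlap such as 4930447C04Rik and Six6. Genes were matched by Ensembl identifier to GENCODE vM21 on GRCm38 (30934 of 31053). The members, lists and comparisons were chosen with earlier results of these data known.

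Levels were computed from summed counts with exact Poisson 95% intervals, ratios with exact conditional intervals and shares with exact binomial intervals. They cover counting error only. Named genes were those of the fixed lists, the 25 highest and 10 lowest against other E16.5 cells, the 10 highest and lowest against E14.5 and E18.5, the 15 of highest Fano factor, the ends of component 1 and the 10 of highest level. Other names were chosen after their values were seen. Component 1 was taken from log(1 + UMIs), and thinning was drawn without replacement with seed 1. Doublets were kept, and Scrublet in scanpy 1.11.5 was run for an alternative. Python 3.11.15, numpy 2.4.6, scipy 1.17.1 and pandas 2.3.3 were used. The functions were tested on simulated data.

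Alternatives moved the limits on genes, Sycp3 and Kitl plus Wnt6 (that on Dazl plus Ddx4 was kept), the scaling, the filter on low levels, the added CPM, the fold and the compared cells. No doublet removal by the authors before deposit is stated in the sources used here. All depths are UMI totals, from 32566406 in the E18.5 library to 125415948 in the E16.5 library.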

Additional observations from a re-analysis of the deposited data

How the results depend on the processing

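No paired analysis was possible because each age has 1 library and no comparison rests on replicates, and no replicate was left out, there being none. Over 16 alternatives 101 values were recomputed, and 85 stayed within 1.5 times the reported count or within the interval of the reported share. Moving the limits on genes, Sycp3, Kitl plus Wnt6 or mitochondrial share, removing Scrublet doublets, weighting cells equally, adding 1 CPM, dropping the low filter, comparing only with cells of at most 2 Dazl plus Ddx4 UMIs, or leaving haemoglobin and mitochondrial genes out of totals moved no value beyond that.

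With 20 CPM added the genes higher and lower numbered 1211 and 1608 against other E16.5 cells, 1068 and 482 against E14.5, and 544 and 333 against E18.5. With a fold of 4 they numbered 543 and 1260, 328 and 162, and 106 and 104. Relative to somatic cells of the same libraries, an alternative chosen after the data were seen, they numbered 563 and 594 against E14.5 and 327 higher against E18.5. More added CPM or a larger fold asks for a larger difference. The somatic alternative both tests fewer genes (7881 and 7854) and divides by the somatic ratio. Under it the balance of higher to lower genes turned, from 2442 and 912 to 563 and 594 against E14.5 and from 1123 and 823 to 327 and 652 against E18.5. Thinning to 5000 UMIs left 87 genes of Fano factor above 2. Of the 10 genes at each end of component 1, 7 and 7 were shared at that depth, where the component held 12.1% of the variance.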
